A study of Mus musculus with 6 samples.

Results

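This report describes genes of transcriptional silencing in a mouse lung cancer line with raised miR-34a: Polycomb group genes, histone deacetylases, DNA methylation enzymes and the demethylases, methyltransferases and NuRD subunits that work beside them. They were taken from a list of 48 symbols, and a symbol was measured where at least 1 probe set was annotated to it alone. That held for 40 of the 48, among 12393 genes tested. No such probe set was found for Sirt5, Sirt6, Hdac4, Hdac8, Hdac10, Tet3, Kdm6b and Suv39h1, which are not analysed here. The 6 arrays comprised 3 samples of 344SQ cells with inducibly expressed miR-34a and 3 samples of 344SQ cells with a control vector. 344SQ is a metastatic line with high Zeb1, an epithelial repressor. All 6 samples come from that line, and nothing in the labels says how many clones stand behind each group. The titles of the miR-34a samples and the study's outline speak of tumours grown in mice, while other labels speak of cultured cells, so mouse host tissue may be present. Whether the replicates were independent animals or dishes is not stated; the p-values therefore reflect only how far these samples differ, which may be technical.

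Histone deacetylases remove acetyl groups that keep chromatin open. Polycomb repressive complex 2 (PRC2) methylates lysine 27 of histone H3 through Ezh2 or its relative Ezh1, and PRC1 binds that mark and ubiquitinates histone H2A. Dnmt1 copies DNA methylation after replication, Dnmt3a and Dnmt3b set it anew, and TET enzymes oxidise it. miR-34a is a microRNA that p53 induces, and the deacetylase gene Sirt1 is one of its published targets. The mature miR-34a-5p of the mouse is encoded on chromosome 4 (GRCm38.p6, chr4:150068473-150068494, plus strand). It is shown because it is the agent that distinguishes the groups, with the seed that pairs with target messenger RNAs, bases 2 to 8, in capitals. Target sites in the members were not searched for here.
miR-34a-5p: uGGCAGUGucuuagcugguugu

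The values were the authors' deposited intensities, on a linear scale with medians of 466.7 to 484.2 per array, and 3 arrays per group limit the precision. Changes are differences in log2(intensity + 16), miR-34a minus vector, which understate the change of dim probe sets, and each gene is represented by its brightest probe set. A gene was called when limma's adjusted p, over all 12393 genes, was under 0.05. Vector 1 stood apart: its correlation with the other vector arrays across genes was 0.9686 and 0.9722, against 0.993 between vector 2 and vector 3 and 0.9918 to 0.9955 between miR-34a arrays. The epithelial keratin genes Krt18 and Krt8 gave 23645 to 24926 and 21273 to 22834 in miR-34a samples, against 21668 to 24779 and 19705 to 22489 in vector samples. Genes used as markers of other cell types gave signal too, and whether host or cancer cells expressed them was not tested. The summed intensity of 10 fibroblast genes was 44359 to 60902 in miR-34a samples and 19523 to 47081 in vector samples. That of 10 macrophage genes was 20619 to 24315 in miR-34a samples and 11342 to 20076 in vector samples. Vector 1 was lowest for both lists. The sum of 8 endothelial genes was 5277 to 5764 in miR-34a samples and 3710 to 7279 in vector samples. For 10 T and NK cell genes it was 3466 to 3852 in miR-34a samples and 4225 to 4413 in vector samples. Yet 7 of these 10 genes had changes above 0, with a median of 0.14. For 9 neutrophil and mast cell genes, a list that pools both cell types, it was 4875 to 5989 in miR-34a samples. In vector samples that sum was 3574 to 10295, with vector 1 highest. Of the fibroblast genes Col6a1, Col6a2 and Thy1 rose, by 0.70, 0.78 and 1.73 on the log2 scale, and of the macrophage genes Fcgr1 and C1qb rose, by 0.98 and 1.13, while Mrc1 fell by 0.99. The mast cell genes Tpsb2, Cma1 and Cpa3 rose, by 3.53, 2.93 and 2.65 on the log2 scale. The neutrophil gene S100a9 and the NK cell receptor gene Klrc1 fell by 2.98 and 3.00. S100a9 gave 5270 in vector 1, against 1385 and 868 in vector 2 and vector 3. Klrc1, the only T and NK cell gene called, gave 153, 118 and 125 in miR-34a samples and 1434, 1044 and 1043 in vector samples. Bright markers that were not called were Col1a2 and Col3a1 (0.92 and 0.54), Ctss and C1qa (0.47 and 0.83), Flt1 and Cdh5 (0.32 and -0.05), Gzmb and Cd3e (0.19 and 0.14) and Csf3r (0.09). The part of other cells in the members' values was not tested. None of the genes in these lists had a mean intensity of 100 or less over all 6 arrays. In vector samples alone, however, Tpsb2, Cma1 and Cpa3 were dim, at 89.2 to 110, 82.5 to 95.1 and 79.6 to 100. In such bulk RNA, fewer cells of a type and less RNA per cell cannot be told apart.

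Of the 40 measured genes, 10 were called, 5 higher and 5 lower in miR-34a samples, which is 25% against 11.7% of all genes tested. With the dimmest 25% of genes left out, the same 10 members were called, and the share called rose to 16.6% of the 9294 genes that remained. The higher ones were Hdac5, Kdm5a, Ezh1, Ehmt2 and Chd4, and the background for higher calls was 6.5%. The lower ones were Hdac2, Ezh2, Bmi1, Rbbp7 and Dnmt1, against a background of 5.25% for lower calls. The groups did not overlap in 18 of the 40 genes, against 34.9% of all genes. In 10 of them miR-34a was higher (20.8% of all genes) and in 8 lower (14.0% of all genes). The median change was 0.11 over the 40 genes and 0.024 over all genes. The numbers of higher and lower calls depended on scaling: with each array centred on its median they were 3 and 7 among the members and 451 and 992 among all genes, against 805 and 651 as deposited. With quantile normalization they were 5 and 6 among the members and 608 and 804 among all genes.

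**Figure D1:**
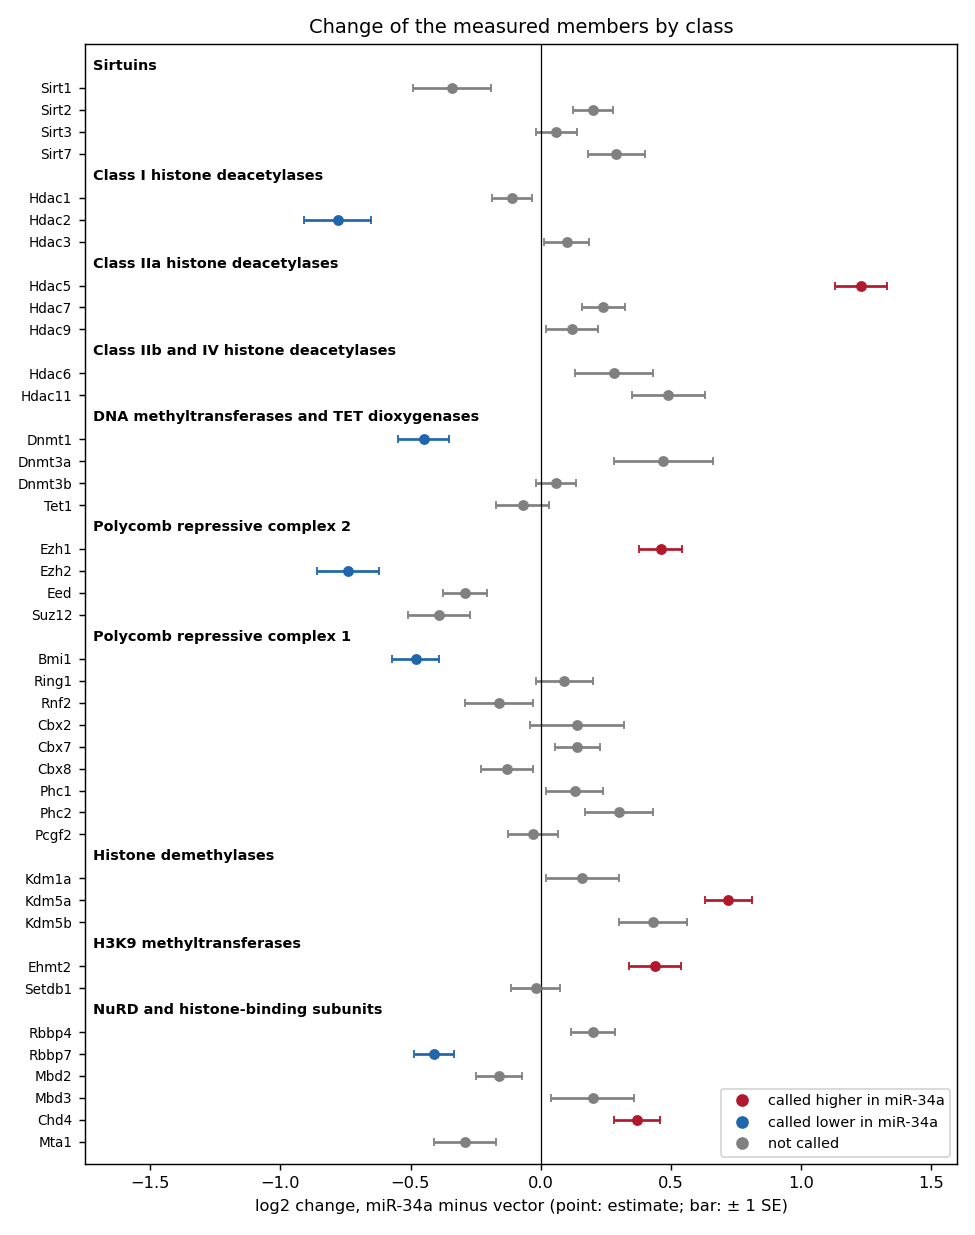
Log2 change (miR-34a minus vector, horizontal axis) of the 40 measured genes, grouped by class, with bars of 1 SE and colours for the call at an adjusted p under 0.05. Hdac5 lies farthest to the right at 1.23 and Hdac2 farthest to the left at -0.78.

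Among the sirtuins, NAD-dependent deacetylases, 0 of 4 measured genes were called by limma, with 2 of 4 at an unadjusted p under 0.05. Sirt1, the deacetylase of histones and p53, gave intensities of 621, 784 and 527 in miR-34a samples, against 726, 871 and 846 in vector samples. The miR-34a 2 value lay inside the vector range and the other miR-34a values below it, so the groups overlapped. The log2 change was -0.34 ± 0.15 (SE, n = 3 each; limma adjusted p = 0.193), with 9.35 ± 0.28 in miR-34a samples and 9.69 ± 0.14 in vector samples (SD). It ran from -0.49 to -0.21 when single arrays were left out, was not called in any of those 6 fits, and was called with array weights. Sirt2, a mainly cytoplasmic deacetylase, had log2 levels of 10.73, 10.61 and 10.69 in miR-34a samples, all above the 10.49, 10.51 and 10.43 of vector samples. Its change of 0.20 was not called (limma adjusted p = 0.146). Sirt7, a nucleolar sirtuin, and Sirt3, the mitochondrial one, had changes of 0.29 and 0.06 with overlapping groups. Sirt7 was called without vector 1, at 0.38.

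The class I deacetylases are the catalytic subunits of nuclear corepressor complexes. Hdac2 fell: intensities were 1105, 1282 and 1002 in miR-34a samples, against 1683, 2212 and 1949 in vector samples. Every miR-34a value lay below every vector value, and the log2 change was -0.78 ± 0.13 (SE, n = 3 each; limma adjusted p = 0.0165), a level 0.584 times that of vector. The call was lost without miR-34a 1, miR-34a 3 or vector 3, with changes from -0.88 to -0.68 over the 6 fits. Hdac1, which pairs with Hdac2 in the same complexes, had log2 levels of 11.58, 11.65 and 11.58 in miR-34a samples and 11.71, 11.79 and 11.65 in vector samples. The groups did not overlap, narrowly, but the change of -0.11 ± 0.078 was not called (limma adjusted p = 0.393). Hdac3, the enzyme of the NCoR and SMRT corepressors, changed by 0.10 with overlapping groups.

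Hdac5, a class IIa deacetylase that shuttles between nucleus and cytoplasm and binds MEF2 factors, had the largest change among the 40 genes. Its intensities were 1329, 1582 and 1538 in miR-34a samples, against 656, 573 and 637 in vector samples. Every miR-34a value lay above every vector value, with a wide gap, and the level was 2.35-fold that of vector (log2 change 1.23 ± 0.10, SE, n = 3 each; limma adjusted p = 0.00264). The call held in each of the 6 fits that left out 1 array, with changes from 1.17 to 1.31, and under each of 10 other settings. Its relatives Hdac7 and Hdac9 had changes of 0.24 and 0.12 and were not called, although the Hdac7 groups did not overlap. A second, dimmer Hdac7 probe set changed by 0.40 (limma adjusted p = 0.0211 when each probe set was tested on its own). Among class IIb and IV genes, Hdac6, a tubulin deacetylase, changed by 0.28 and Hdac11 by 0.49, neither called. The Hdac11 groups did not overlap, with log2 levels of 9.01, 9.11 and 9.15 in miR-34a samples and 8.90, 8.33 and 8.58 in vector samples. Without vector 1 Hdac11 was called at 0.63, and its other probe set changed by 1.0 (limma adjusted p = 0.0107 on its own).

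**Figure D2:**
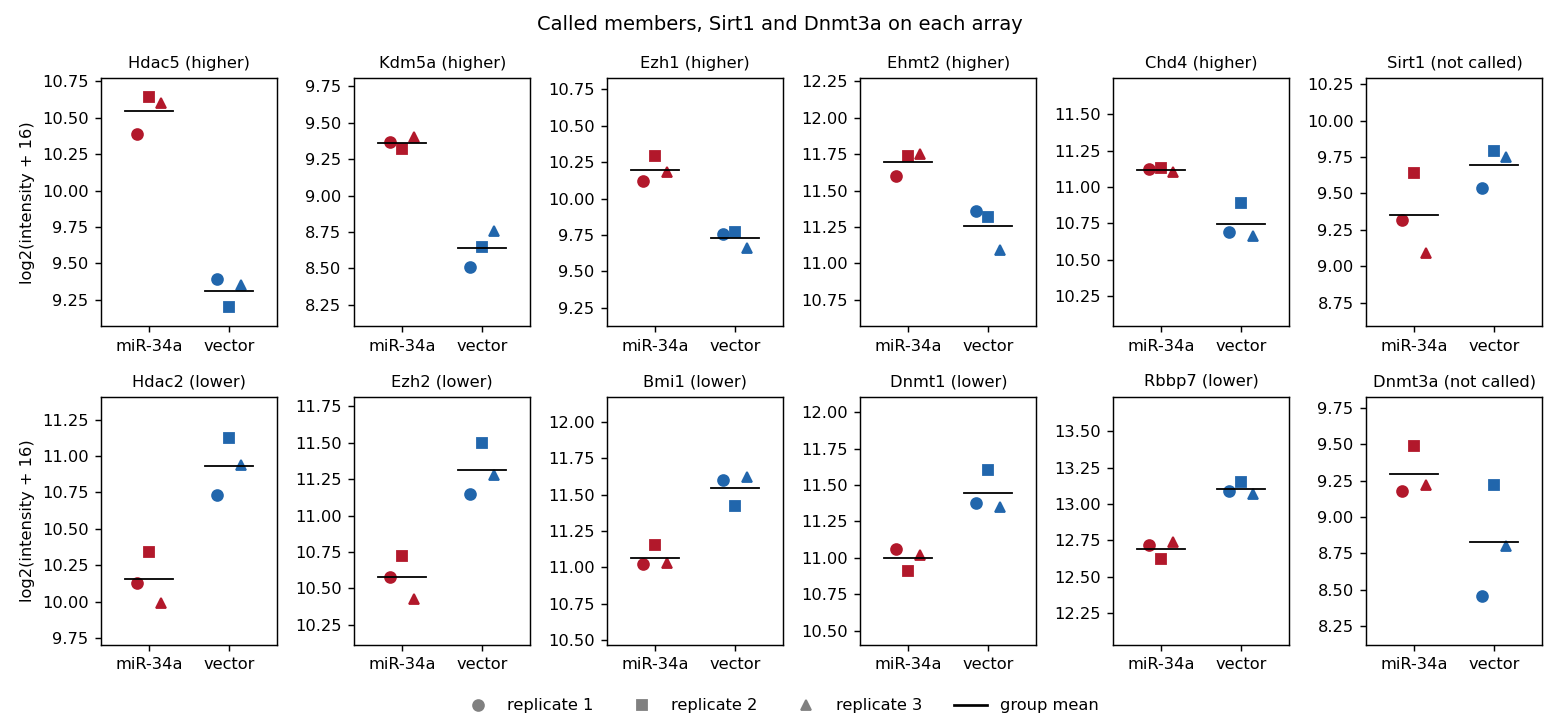
Log2(intensity + 16) on each array for the 10 called genes, Sirt1 and Dnmt3a, with miR-34a samples on the left, vector samples on the right, symbols for replicates and lines for group means; all panels span the same height on the log2 scale. The miR-34a and vector points are apart in the 10 called genes and overlap in Sirt1 and Dnmt3a.

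PRC2 was split between its catalytic subunits. Ezh2 fell, with intensities of 1510, 1676 and 1365 in miR-34a samples and 2259, 2890 and 2470 in vector samples. Ezh1 rose, with intensities of 1096, 1236 and 1140 in miR-34a samples and 853, 856 and 795 in vector samples. In neither gene did the groups overlap. The log2 change was -0.74 ± 0.12 for Ezh2 (limma adjusted p = 0.0146) and 0.46 ± 0.083 for Ezh1 (limma adjusted p = 0.0182; SE, n = 3 each). Without miR-34a 1 or miR-34a 3 both calls were lost, and that of Ezh1 also without miR-34a 2 or vector 3; over the 6 fits Ezh2 ran from -0.82 to -0.64 and Ezh1 from 0.42 to 0.50. The other Ezh1 probe set changed by 0.023, so the rise of Ezh1 rests on 1 of 2 probe sets. With both averaged, Ezh1 changed by 0.24 and was not called (limma adjusted p = 0.063), and its call was also lost with the replicate block (adjusted p = 0.0638). The core subunits Eed, which reads methylated lysine 27, and Suz12, which stabilises the complex, had changes of -0.29 and -0.39 with groups that did not overlap, and were not called (limma adjusted p = 0.0714 and 0.0838). Eed was called with quantile normalization (adjusted p = 0.0437 in limma), median centring (0.0352) and array weights (0.0205), and Suz12 with median centring (0.0389), with array weights (0.0216) and without miR-34a 2 (0.0372). Suz12 had 6 probe sets: 5 changed between -0.71 and -0.28, and 2 of these passed on their own at -0.65 and -0.71. The other one changed by 1.3 ± 0.39 (SE), the only Suz12 probe set with an estimate above 0, and did not pass.

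The proximal promoters of Ezh2 and Ezh1 are shown because these relatives moved apart, and that of Dnmt1 because it fell and holds E2F-type words, listed below. The windows of Hdac2, Bmi1 and Rbbp7, which also fell, held no E2F-type word and are not shown. Windows (RefSeq, GRCm38.p6) run from 250 bases before to 50 after the annotated start, 5′ to 3′ on the gene's strand. Ezh2 lies at chr6:47594981-47595280, minus strand, Ezh1 at chr11:101226414-101226713, minus strand, and the Dnmt1 window at chr9:20952574-20952873, minus strand, is the one of its 3 annotated windows with E2F-type words. Capitals mark matches on either strand to the CCAAT word and to 4 E2F-type words, TTTCCCGC, TTTCGCGC, TTTGCCGC and TTTGGCGC; a CCAAT match and its reverse overlap once in Dnmt1. E2F factors drive genes of DNA replication.
Ezh2: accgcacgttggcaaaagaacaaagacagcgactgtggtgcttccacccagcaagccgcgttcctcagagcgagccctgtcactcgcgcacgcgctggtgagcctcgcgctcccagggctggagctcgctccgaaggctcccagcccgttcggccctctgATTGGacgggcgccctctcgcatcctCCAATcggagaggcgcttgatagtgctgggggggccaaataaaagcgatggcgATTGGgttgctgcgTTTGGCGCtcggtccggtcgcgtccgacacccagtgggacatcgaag
Ezh1: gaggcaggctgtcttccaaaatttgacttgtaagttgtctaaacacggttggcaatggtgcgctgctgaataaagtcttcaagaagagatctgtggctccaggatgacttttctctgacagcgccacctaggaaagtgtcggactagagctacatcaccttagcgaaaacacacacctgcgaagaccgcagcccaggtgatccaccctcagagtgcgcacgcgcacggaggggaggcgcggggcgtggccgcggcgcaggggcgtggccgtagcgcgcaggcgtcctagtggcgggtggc
Dnmt1: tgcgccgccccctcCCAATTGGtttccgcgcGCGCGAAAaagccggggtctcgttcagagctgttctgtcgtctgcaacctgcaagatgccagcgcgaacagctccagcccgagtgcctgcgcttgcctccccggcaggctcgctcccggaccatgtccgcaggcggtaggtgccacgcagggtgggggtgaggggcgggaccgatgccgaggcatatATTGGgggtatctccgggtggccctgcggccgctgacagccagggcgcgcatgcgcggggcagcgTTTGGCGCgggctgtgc

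An E2F-type word stood in the windows of Ezh2, Dnmt1 and Suz12 and in no other of the 35 measured members with a window. This is 3 of their 48 windows (6.25%), against 2.26% of all 32851 windows and 3.38% of the 12566 windows of genes tested. A CCAAT word stood in 43.8% of the members' windows, 37.4% of all windows and 37.1% of the windows of genes tested. The word TTTGAA, the cell cycle homology region, stood in 16.7% of the members' windows, 17.9% of all windows and 12.9% of the windows of genes tested. Such matches describe letters in these windows and show no binding.

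PRC1 had 1 called gene among 9, 11.1% against 11.7% of all genes. Bmi1, the Polycomb ring finger protein that stimulates H2A ubiquitination and restrains the Cdkn2a locus, fell. Its intensities were 2063, 2253 and 2081 in miR-34a samples, against 3084, 2715 and 3132 in vector samples, with no overlap. The log2 change was -0.48 ± 0.09 (SE, n = 3 each; limma adjusted p = 0.0205) and -0.35 in a second probe set, which passed on its own (limma adjusted p = 0.042). The call was lost without miR-34a 1, miR-34a 3 or vector 3. The other 8 genes had changes from -0.16 for Rnf2, the main E3 ligase, to 0.30 for the scaffold gene Phc2, and in each of them the groups overlapped. All 5 Rnf2 probe sets had changes below 0, and 1 of them passed on its own at -0.36 (limma adjusted p = 0.0459). The ligase gene Ring1 changed by 0.09, the chromobox genes Cbx2, Cbx7 and Cbx8 by 0.14, 0.14 and -0.13, the scaffold gene Phc1 by 0.13 and the Bmi1 relative Pcgf2 by -0.03. The second probe sets of Cbx7 and Cbx8 had changes of the opposite sign, -0.23 and 0.24. The direction of Cbx2 turned to -0.072 without vector 1.

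Of the DNA methylation genes, Dnmt1 was called and lower. Its intensities were 2119, 1911 and 2059 in miR-34a samples and 2650, 3086 and 2600 in vector samples, without overlap. The log2 change was -0.45 ± 0.097 (SE, n = 3 each; limma adjusted p = 0.0299), and the second probe set changed by -0.38. The call of Dnmt1 was kept in 1 of 6 fits, that without vector 1, and its change ran from -0.49 to -0.37. Dnmt3a, a methyltransferase for new sites, had intensities of 563, 703 and 581 in miR-34a samples and 337, 582 and 430 in vector samples. Vector 2 reached the miR-34a range while vector 1 was lowest, and the change of 0.47 ± 0.19 was not called (limma adjusted p = 0.169). It was 0.66 and called without vector 2, and 0.28 without vector 1, and 4 further probe sets changed between -0.056 and 0.20. Dnmt3b had log2 levels of 7.77, 7.80 and 7.76 in miR-34a samples and 7.79, 7.70 and 7.65 in vector samples, a change of 0.06 within the spread. Tet1, a dioxygenase of 5-methylcytosine, was dim, at 59.9 to 75.3 in miR-34a samples and 69.3 to 81.2 in vector samples, and changed by -0.07.

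Kdm5a, a demethylase of trimethylated lysine 4 of histone H3 that binds the retinoblastoma protein, rose. Its intensities were 647, 621 and 662 in miR-34a samples and 349, 385 and 418 in vector samples, so the groups lay well apart. The log2 change was 0.72 ± 0.09 (SE, n = 3 each; limma adjusted p = 0.00674), kept in each of the 6 fits without 1 array at 0.66 to 0.79 and under each of 10 other settings. Kdm5b, its close relative, had log2 levels of 10.61, 10.91 and 10.54 in miR-34a samples and 10.07, 10.30 and 10.38 in vector samples. The Kdm5b groups did not overlap, and the change of 0.43 ± 0.13 was not called (limma adjusted p = 0.0772). Kdm1a, a demethylase of lysine 4 in the CoREST complex, changed by 0.16.

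Ehmt2, the G9a methyltransferase of lysine 9, had intensities of 3096, 3410 and 3433 in miR-34a samples and 2614, 2549 and 2170 in vector samples. Ehmt2 rose by this probe set, by 0.44 ± 0.10 (SE, n = 3 each; limma adjusted p = 0.0349), but a dimmer one changed by -0.41 ± 0.12 and did not pass on its own (limma adjusted p = 0.072). The call of Ehmt2 was kept in 1 of 6 fits, that without vector 1, and was lost with median centring, when all probe sets were averaged and with the replicate block. Setdb1, the lysine 9 methyltransferase of the Trim28 pathway, changed by -0.02, with other probe sets at -0.27 and 0.20.

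The NuRD complex joins a chromatin remodeller, histone deacetylases and histone-binding proteins. Chd4, the remodelling ATPase, rose, with intensities of 2212, 2219 and 2172 in miR-34a samples and 1633, 1885 and 1604 in vector samples. The change was 0.37 ± 0.089 (SE, n = 3 each; limma adjusted p = 0.0413), its other probe sets changed by 0.26 and 0.12, and the call was kept in 2 of 6 fits, without vector 1 and without vector 2. The Chd4 call was also lost with median centring (0.27, limma adjusted p = 0.0924), when all probe sets were averaged (0.25, adjusted p = 0.0889) and with the replicate block (adjusted p = 0.0987). Rbbp7, a histone-binding subunit shared with PRC2, fell, with intensities of 6751, 6291 and 6815 in miR-34a samples and 8730, 9098 and 8594 in vector samples. The change was -0.41 ± 0.077 (limma adjusted p = 0.0199) and -0.68 in a second probe set. The Rbbp7 call was kept without vector 1 or vector 2 and lost in the other 4 fits. Rbbp4, its near relative, had log2 levels of 13.20, 13.27 and 13.25 in miR-34a samples and 12.91, 13.11 and 13.08 in vector samples. They did not overlap, and the change of 0.20 was not called (limma adjusted p = 0.173); other Rbbp4 probe sets changed by 0.66 (adjusted p = 0.0194 in limma on its own) and -0.053. The probe sets that stand for Rbbp4 and Rbbp7 carry the array maker's x suffix, which marks probes that can match other sequences. The methyl-CpG binding gene Mbd2 changed by -0.16 and was not called, while its dimmer probe set changed by -1.1 ± 0.16 (SE; limma adjusted p = 0.00748 on its own). Mbd3 and Mta1, further NuRD subunits, had changes of 0.20 and -0.29 with overlapping groups.

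**Figure D3:**
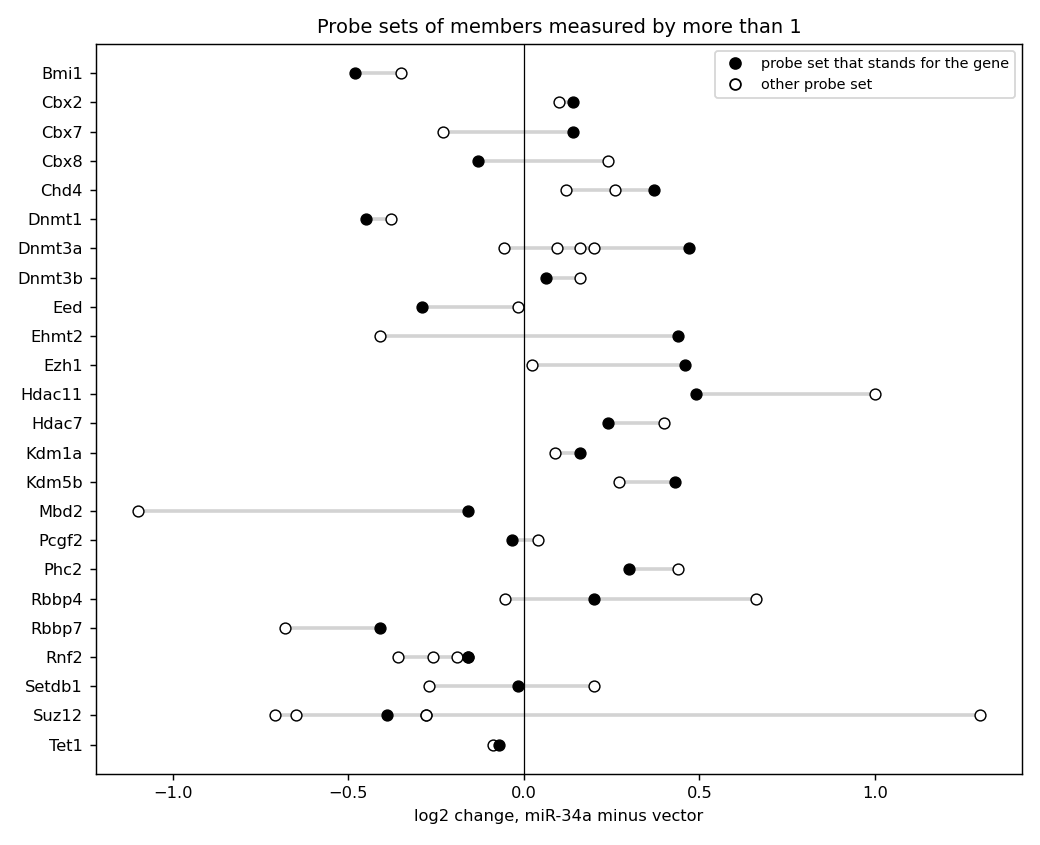
Log2 change (miR-34a minus vector) of every probe set of the 24 members measured by more than 1; filled points are the probe sets that stand for the gene. Bmi1, Dnmt1 and Rbbp7 have all points left of 0, and Ehmt2, Cbx7, Cbx8, Setdb1, Rbbp4, Dnmt3a, Pcgf2 and Suz12 have points on both sides.

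Several of the called genes have a close relative that was not called or that moved the other way, and the log2 difference of each pair was compared within arrays. The 12 pairs were chosen after the values were seen. Ezh1 minus Ezh2 was -0.46, -0.43 and -0.26 in miR-34a samples, against -1.39, -1.74 and -1.62 in vector samples, a shift of 1.20 between the means. The shift was 0.66 for Hdac1 minus Hdac2, 0.61 for Rbbp4 minus Rbbp7, 0.99 for Hdac5 minus Hdac7, 1.11 for Hdac5 minus Hdac9, -0.44 for Bmi1 minus Pcgf2 and 0.27 for Cbx7 minus Cbx8. In these 7 pairs the groups did not overlap, and each had an exact permutation p of 0.1, two-sided, the smallest that 3 against 3 arrays allow (0.171 after adjustment over 12 pairs). All of these pairs except Cbx7 minus Cbx8 hold a gene called on the same arrays, so their separation is not separate support. The share of other gene pairs without overlap was not computed, and among single genes it was 34.9%. Some shifts rest on the probe set chosen: averaged over all probe sets, Cbx7 changed by -0.048 and Cbx8 by 0.056, the opposite order, and the second Ezh1 probe set changed by 0.023. The groups overlapped for Kdm5a minus Kdm5b (0.29), Dnmt3a minus Dnmt3b (0.40), Ring1 minus Rnf2 (0.25), Phc1 minus Phc2 (-0.17) and Mbd2 minus Mbd3 (-0.36). A scale factor for a whole array cancels in such differences.

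**Figure D4:**
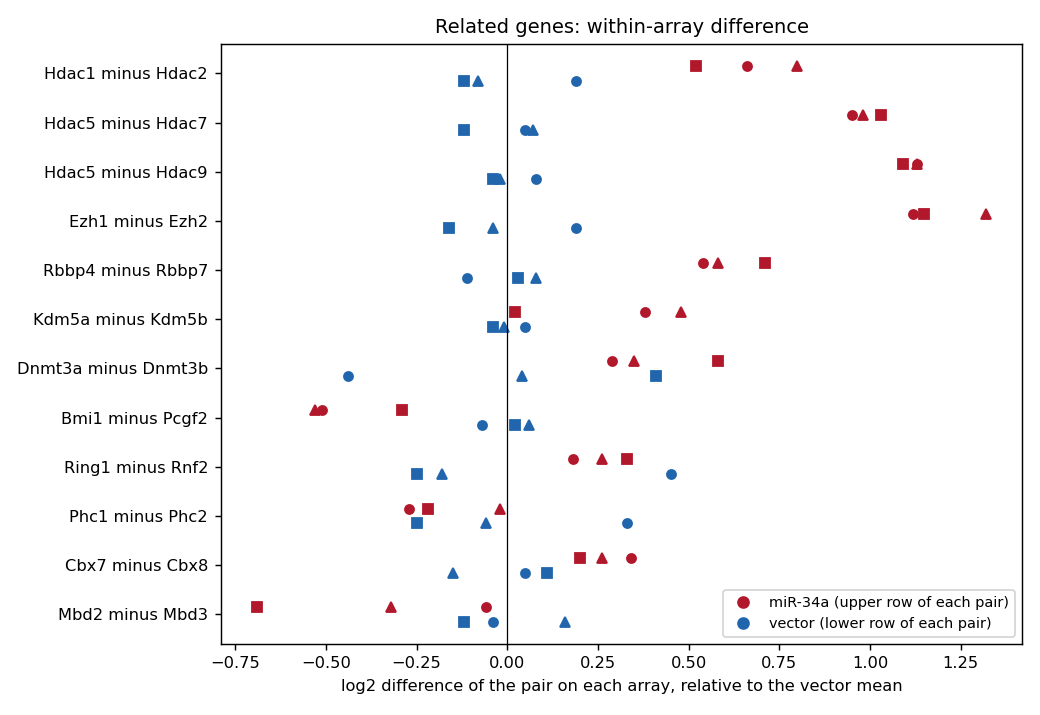
Log2 difference between 2 related genes on each array, relative to the vector mean of that difference; miR-34a samples are in the upper row and vector samples in the lower row of each pair, with symbols for replicates as in the plot of values by array. The miR-34a points of Ezh1 minus Ezh2 lie about 1.2 to the right of the vector points.

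Other genes of the same machinery were read from lists chosen with earlier results known. Of 37 further measured genes of repressive complexes and DNA methylation, 4 were called higher and 2 lower, 16.2% against 11.7% of all genes. Phf1, a PRC2 partner, changed by 0.62 and Asxl1, a partner of the H2A deubiquitinase Bap1, by 0.37. Uhrf1, which recruits Dnmt1 to replicated DNA, gave 1575, 1449 and 1508 in miR-34a samples and 2289, 2553 and 1903 in vector samples, a change of -0.56 ± 0.12 (SE, n = 3 each; limma adjusted p = 0.0282). Sap30, a subunit of the Sin3 deacetylase complex, changed by -0.53. These counts depended on single arrays. They were 0 without miR-34a 1 or miR-34a 3, 0 higher and 1 lower without miR-34a 2, 4 and 4 without vector 1, 3 and 0 without vector 2, and 2 and 1 without vector 3. Scaling split them differently as well, with 2 higher and 4 lower under quantile normalization and 1 higher and 6 lower under median centring. Of 10 histone acetyltransferase genes, 2 were lower and 0 higher, 20% against 11.7% of all genes. They were Hat1, which acetylates new histone H4, at -0.68, and Kat6a at -0.45. Of 10 other demethylases Phf8 was lower, at -0.69 (10% called). Of 14 trithorax and related methyltransferases Kmt2e was lower, at -0.47 (7.14% called). Phf8 and Hat1 belong to lists that kept at least 1 lower call in each of the 6 fits without 1 array: 3 other demethylases were lower without vector 1 or vector 2, and 1 acetyltransferase without miR-34a 1, miR-34a 3, vector 2 or vector 3. The trithorax list kept its lower call in 1 fit, that without vector 1.

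Most of the measured genes of DNA replication and division were also lower in miR-34a samples. Of 34 measured, 26 were called lower and 0 higher, 76.5% against 11.7% of all genes, with a median change of -0.62. Mki67, the proliferation antigen, gave 1821, 1574 and 1344 in miR-34a samples and 4067, 4154 and 3411 in vector samples, a change of -1.29 ± 0.13 (SE, n = 3 each; limma adjusted p = 0.0054). Rrm2, of ribonucleotide reductase, changed by -1.17, Pola1, of DNA polymerase alpha, by -1.06 and the spindle checkpoint kinase gene Bub1 by -1.01. Lower calls numbered 9 without miR-34a 3, 13 without miR-34a 1, 17 without miR-34a 2, 20 without vector 3, 22 without vector 2 and 25 without vector 1. The part of proliferation in the lower levels of Ezh2, Dnmt1, Hdac2, Rbbp7 and Uhrf1 was not tested.

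Genes that these systems are known to silence were read in the same way. Of 35 measured Hox genes and Cdkn genes 2 were higher, Hoxb5 at 0.46 and Hoxd9 at 0.38, and 0 lower, 5.71% against 11.7% of all genes. Of 14 germline genes kept silent by DNA methylation 0 were called by limma, with 1 at an unadjusted p under 0.05, and their median change was 0.018. Of 22 imprinted genes 2 were lower, 9.09% against 11.7% of all genes. They were the potassium channel gene Kcnq1 at -0.87 and Mest at -0.40. Without vector 1 the Hox and Cdkn calls numbered 4 and the imprinted calls 3; in the other 5 fits they numbered 0 and at most 1. The Hox and Cdkn counts also depended on scaling, with 0 higher and 0 lower under quantile normalization and 0 higher and 1 lower under median centring. The cyclin-dependent kinase inhibitor genes Cdkn2a and Cdkn2b, neighbours that Polycomb proteins repress, were singled out after their values were seen. Cdkn2a gave 2818, 3106 and 2739 in miR-34a samples, against 33.6, 946 and 1546 in vector samples. Cdkn2b gave 3149, 3636 and 3227 in miR-34a samples, against 150, 1380 and 1853 in vector samples. The miR-34a values were high and close together, and vector 1 was far below the other vector samples in both genes. Among markers of other cells, Thy1 and C1qb had the same order of groups with vector 1 lowest. Thy1 gave 4065, 3011 and 4047 in miR-34a samples and 580, 1788 and 1274 in vector samples. C1qb gave 2502, 2514 and 3099 in miR-34a samples and 745, 1528 and 1603 in vector samples. Fcgr1, C1qa and Col6a1 were also ordered so. Mrc1, S100a9 and Klrc1 were instead lower in miR-34a samples with vector 1 highest, and the groups overlapped for Col1a2, Col3a1 and Ctss. The part of other cells in the Cdkn2a and Cdkn2b values was not tested. The Cdkn2a and Cdkn2b changes of 2.78 ± 1.2 and 2.15 ± 0.83 (SE, n = 3 each) were not called over 6 arrays (limma adjusted p = 0.173 and 0.144). Without vector 1 they were 1.24 and 1.05, and both were called (limma adjusted p = 0.00514 and 0.00326). In vector 1 Bmi1 stood at 3084, between the other vector samples, and Ezh2 at 2259, the lowest of the vector samples. The part of Polycomb gene levels in the Cdkn2a and Cdkn2b values was not tested.

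The calls among the 40 genes depended on which arrays entered. Without vector 1, all 10 calls were kept and Hdac11 and Sirt7 were added, with 17.2% of all genes called against 11.7% over 6 arrays. Without vector 2, 8 were kept and Dnmt3a and Phc2 were added, with 10.1% of all genes called. Without miR-34a 2, 5 were kept and Suz12 was added, with 5.38% of all genes called. Without vector 3, the 3 that remained were Hdac5, Kdm5a and Ezh2, and leaving out either miR-34a 1 or miR-34a 3 kept Hdac5 and Kdm5a. Calls over all genes numbered 631, 255 and 226 in those 3 fits (5.09%, 2.06% and 1.82%). The direction of each of the 10 genes was the same in all 6 fits.

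**Figure D5:**
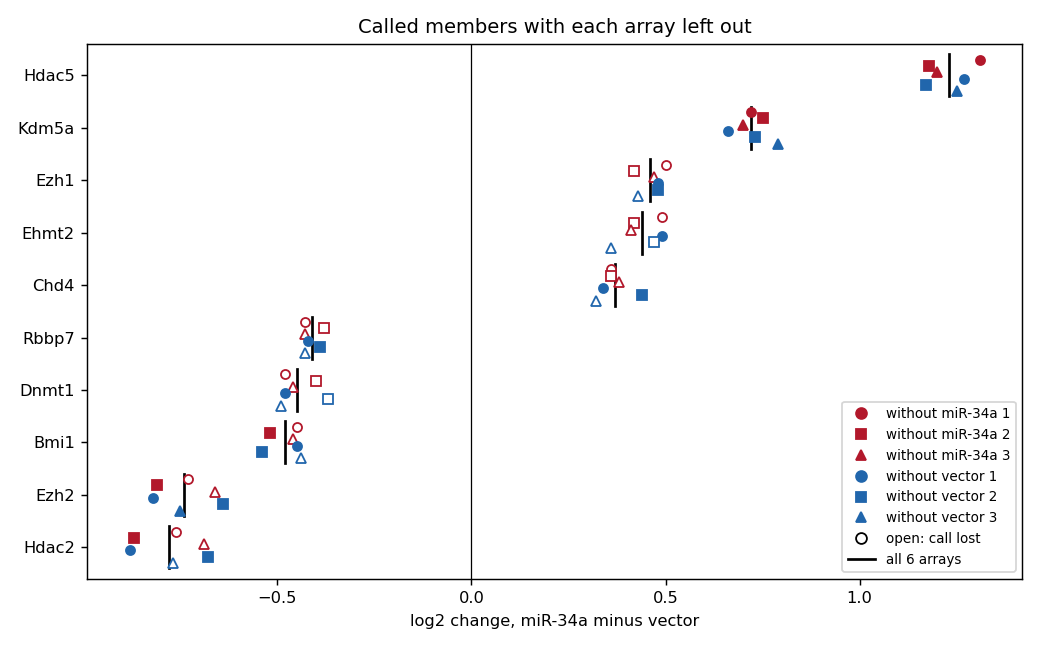
Log2 change (miR-34a minus vector) of the 10 called genes when each array was left out, with black lines for all 6 arrays; open symbols are fits in which the adjusted p was 0.05 or more. Hdac5 and Kdm5a have filled symbols in all 6 fits, and no symbol crosses 0.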

How the data were processed

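RNA of 6 samples was measured on Affymetrix mouse expression arrays, according to the labels. The authors deposited 1 table of intensities on a linear scale for 22690 probe sets, with a minimum of 1; how they were summarised and scaled is not given in the sources used here, and values were taken as already scaled because array medians lie close together. No detection calls were used, so dim signal and background are not separated. Groups and replicate numbers come from the titles. Symbols were taken from the platform annotation and brought up to date by Entrez identifier in the RefSeq gene table: 20380 probe sets had 1 symbol, 691 several and 1555 none, and 64 controls were left out. Each gene was represented by its probe set with the highest mean of log2(intensity + 16), giving 12393 genes.

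The test was limma 3.58.1 (R 4.3.3; linear model with moderated variance), two-sided, with Benjamini-Hochberg adjustment, and the fit was tested on simulated data. Alternatives were other scalings, pseudocounts of 1 and 64, leaving out the dimmest 25% of genes, other probe set rules, array weights, a variance trend with robust fitting, the replicate block and leaving out each array. Testing every probe set on its own was added after the data were seen. Every member is named, with values per array for called members and for Sirt1, Dnmt3a, Dnmt3b and Hdac1; Sirt2, Hdac11, Kdm5b and Rbbp4 were added to these after their values were seen. Of each further list, up to 4 called genes with the smallest p are named, and of marker lists the called genes and the 2 brightest. Members and lists were chosen with earlier results of these data known. Promoter and microRNA sequences are from RefSeq. Figures were drawn with matplotlib 3.10.9. Same-numbered samples did not deviate together, so the replicate number was not used in the reported fit.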

Additional observations from a re-analysis of the deposited data

How the results depend on the processing

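Directions of the 10 called genes held under each of 16 alternatives, and 119 of the 160 results kept their side of the threshold. With array weights, calls numbered 3238 over all genes, 9 higher and 8 lower among the members. With the replicate number as a block (replicate block) they numbered 522, 2 and 2; deviations of same-numbered samples correlated at -0.168, -0.0935 and -0.0812, so these share only a number, and Hdac5, Kdm5a, Hdac2 and Ezh2 kept their calls. With every probe set tested on its own, 2782 of 20380 passed, 13.7%. Leaving out 1 array gave 226 to 2133 calls over all genes, and 2 to 7 higher and 0 to 5 lower members; each such fit has 1 array fewer. With median centring 3 members were called higher. The members' median change was 0.11, 0.062 with quantile normalization, 0.015 with median centring and 0.056 to 0.135 with 1 array left out.

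Reversals concerned members that were not called: Sirt3 at -0.018 with quantile normalization and -0.04 with median centring, and with median centring also Dnmt3b at -0.033 and Ring1 at -0.0011. With the mean of all probe sets Cbx7 changed by -0.048, Cbx8 by 0.056 and Pcgf2 by 0.0028. With 1 array left out, Tet1 ran from -0.12 to 0.012, Setdb1 from -0.073 to 0.06, Pcgf2 from -0.1 to 0.029 and Cbx2 from -0.072 to 0.29. The causes were not tested. Signal over background could not be judged without detection calls, which limits dim probe sets such as those of Tet1.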

Other observations

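On control probe sets, the log2 difference between the 3' and 5' ends of Gapdh, a sign of RNA integrity, was 0.0982 to 0.125 in miR-34a samples and -0.054 to 0.0689 in vector samples (exact permutation p = 0.1, two-sided, the smallest that 3 against 3 arrays allow). For Actb it was 0.54 to 0.59 in miR-34a samples and 0.343 to 0.596 in vector samples (exact permutation p = 0.4). Its part in the members' values was not tested.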
